A study of Mus musculus with 4 samples.

Results

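The cathepsins are proteases that work mainly in lysosomes, and 10 of their genes were followed here in the liver of mice on a diet that causes fatty liver and inflammation. The genes were taken by name, as Ctsa, Ctsb, Ctsc, Ctsd, Ctse, Ctsh, Ctsk, Ctsl, Ctss and Ctsz, with earlier results of these data known. All 10 were measured among the 22180 genes of the array, which also measured 13 other cathepsin genes. Each had 1 row that names it alone. The mice were wild-type C57BL/6J males that from 6 weeks of age ate a normal diet or an MCD diet, which lacks methionine and choline, for 20 weeks. Both groups share strain, sex and tissue, and neither carries an engineered allele. Each diet is represented by 2 liver samples, each on its own Mouse Gene 2.1 ST array, for 4 arrays in all.

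Cathepsins are made as inactive precursors, carried to the lysosome largely by mannose 6-phosphate receptors and activated there by acid and by cleavage. Most of them are cysteine proteases of the papain type (Ctsb, Ctsc, Ctsh, Ctsk, Ctsl, Ctss and Ctsz), whereas Ctsd and Ctse are aspartic proteases and Ctsa is a serine carboxypeptidase. Ctsb, Ctsd and Ctsl are made by most cells, including hepatocytes, while Ctss is known from antigen-presenting cells, macrophages among them, and Ctsk from osteoclasts. Cystatins hold cathepsins that escape from lysosomes in check.

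Signals are the authors' values read as log2, so a difference of 1 is a doubling. The array medians were 2.63 and 2.65 on the normal diet and 2.57 and 2.63 on the MCD diet, and the number of arrays limits the precision. The labels number the mice but do not say whether an array holds 1 animal, so the p-values cover no more than the variation among these 4 arrays, which may be technical. The 12 hepatocyte markers examined were all above the median normal diet signal, and Alb, the albumin gene, lay near the top of the scale on every array (11.93 to 12.04). A gene was called where limma's p-value, adjusted over all 22180 genes by Benjamini-Hochberg, was under 0.05.

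In MCD diet livers 6 of the 10 cathepsin genes rose and 0 fell by limma: Ctss, Ctsk, Ctsl, Ctsd, Ctsb and Ctsz. None of the 13 other cathepsin genes measured was called, and their median difference was -0.12, so the counts below hold for the 10 chosen genes. At an unadjusted p under 0.05, 8 were higher and 0 lower. Of all 22180 genes 3058 were higher and 2303 lower at that level, the background for every such count below. The count that rose was 3 without either normal diet array and 4 without either MCD diet array. The background was 6.37% of all genes called higher and 3.62% called lower. Since 8 of the 10 belong to the brightest 25% of genes, the share called higher among those, 8.44%, is the closer background. The median difference of the 10 genes was 0.71 on the log2 scale, against -0.03 over all genes tested and 0.03 over the brightest 25%. All 10 had both MCD diet arrays above both normal diet arrays, a pattern that 25.0% of all genes showed. Because the tissue was measured in bulk, more cells of a type and more RNA per cell cannot be told apart.

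**Figure D1:**
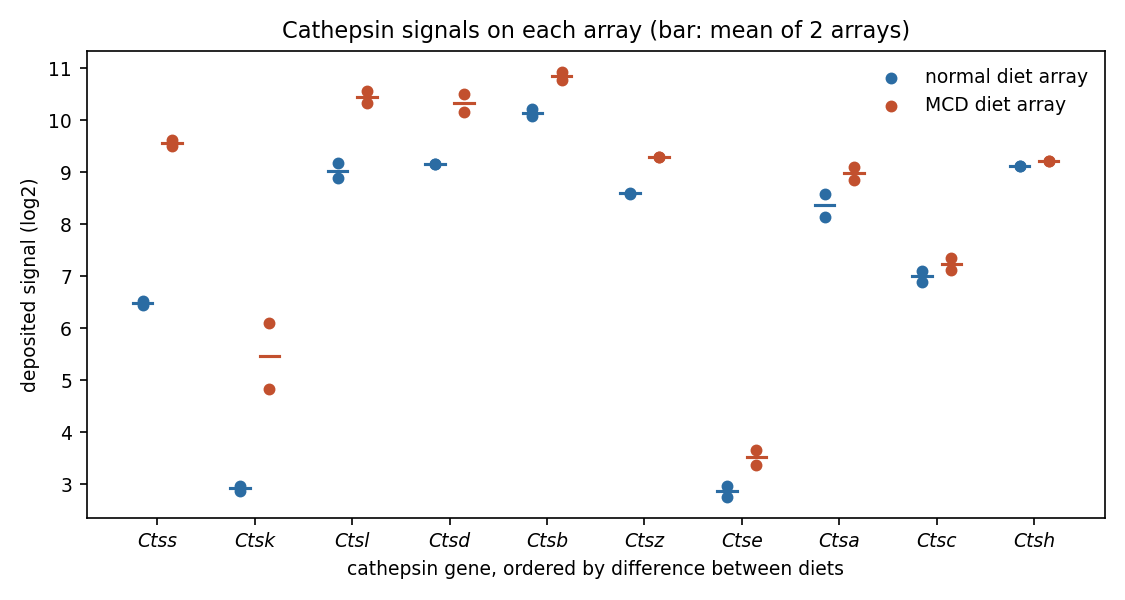
Deposited log2 signal of each cathepsin gene on the 4 arrays, with normal diet arrays in blue, MCD diet arrays in orange and a bar at the mean of each pair. Ctss stood near 6.48 on the normal diet and 9.55 on the MCD diet, while the Ctsh points of both diets nearly coincide and the MCD diet points of Ctsk lie far apart.

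Among the papain-type enzymes, Ctss, which cuts the invariant chain of MHC class II molecules and stays active at neutral pH, rose furthest. Normal diet livers gave signals of 6.52 and 6.45, and MCD diet livers gave 9.62 and 9.49. Both pairs were tight and lay far apart. The difference was 3.07 ± 0.12 on the log2 scale (8.41-fold; ± is limma's standard error, n = 2 arrays per diet; limma adjusted p = 0.000297), rank 55 of all genes from the top.

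Ctsk, the collagen-degrading enzyme of osteoclasts, was dim on the normal diet at 2.87 and 2.97 and reached 6.10 and 4.83 on the MCD diet. The diets did not overlap, but the MCD diet arrays differed from each other by 1.27, more than those of any other cathepsin. It rose by 2.54 ± 0.38 (5.82-fold; limma adjusted p = 0.0129). The difference was 1.91 without MCD diet replicate 1 and 3.17 without MCD diet replicate 2. Its call was lost without normal diet replicate 1 (adjusted p = 0.0509) and without normal diet replicate 2 (adjusted p = 0.0511). Since signal over background was not analysed here, the size of a rise from so dim a signal is uncertain.

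Ctsl, a broadly expressed endopeptidase, gave 9.17 and 8.88 on the normal diet and 10.6 and 10.3 on the MCD diet. The lower MCD diet array lay 1.16 above the higher normal diet array. It rose by 1.42 ± 0.16 (2.68-fold; limma adjusted p = 0.00483).

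Ctsb, which acts as both an endopeptidase and a carboxypeptidase, stood at 10.2 and 10.1 on the normal diet and at 10.9 and 10.8 on the MCD diet. Ctsz, a carboxypeptidase, stood at 8.59 and 8.58 against 9.30 and 9.28. Both rose by similar amounts, Ctsb by 0.71 ± 0.13 (1.63-fold; limma adjusted p = 0.0241) and Ctsz by 0.70 ± 0.12 (1.63-fold; limma adjusted p = 0.0173). These calls rest on having all 4 arrays. The call of Ctsb was lost without normal diet replicate 1 or 2 (adjusted p = 0.0657 and 0.118) and without MCD diet replicate 1 or 2 (adjusted p = 0.113 and 0.0580). That of Ctsz was lost in the same 4 cases, with adjusted p of 0.0722, 0.0840, 0.0807 and 0.0642, while its difference stayed between 0.70 and 0.71.

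The other papain-type enzymes did not pass the test. Ctsc, the dipeptidyl peptidase that activates granule proteases of neutrophils, mast cells and killer lymphocytes, had signals of 6.89 and 7.11 on the normal diet and 7.35 and 7.12 on the MCD diet. The diets almost touched, and the difference of 0.24 ± 0.15 had an interval from -0.12 to 0.60 (95%; limma adjusted p = 0.399). Leaving out normal diet replicate 1 gave 0.13, and leaving out MCD diet replicate 1 gave 0.12. Ctsh, an aminopeptidase, gave 9.12 in both normal diet livers, and 9.21 and 9.22 in MCD diet livers. Its difference was 0.09 ± 0.12, and the interval from -0.19 to 0.37 does not reach a 2-fold change (limma adjusted p = 0.706). Under quantile normalization it was 0.22 and under median centring 0.03.

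Of the aspartic proteases, Ctsd, the main lysosomal one, rose. Its normal diet signals, 9.15 and 9.15, were nearly equal, and its MCD diet signals were 10.5 and 10.2. The difference was 1.18 ± 0.15 (2.27-fold; limma adjusted p = 0.00724), with a gap of 1.02 between the nearest arrays of the diets. Ctse, an endosomal aspartic protease known from stomach, blood cells and antigen-presenting cells, was dim at 2.76 and 2.96 on the normal diet and at 3.66 and 3.37 on the MCD diet. The diets did not overlap, but the difference of 0.65 ± 0.15 missed the threshold (limma adjusted p = 0.0523). It passed when the dimmest 25% of genes were left out (adjusted p = 0.0473), where fewer genes are adjusted over. It also passed without the dimmest 50% (adjusted p = 0.0423), but its normal diet signal lay below the median of all genes and it stayed in through its MCD diet signal, so that pass is no support.

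Ctsa, the serine carboxypeptidase that also protects neuraminidase and beta-galactosidase in the lysosome, had signals of 8.58 and 8.14 on the normal diet and 9.10 and 8.84 on the MCD diet. The diets did not overlap, yet the normal diet pair was the most spread of the family at 0.44. The difference of 0.61 ± 0.19 did not pass (limma adjusted p = 0.108) and was 0.39 without normal diet replicate 2.

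**Figure D2:**
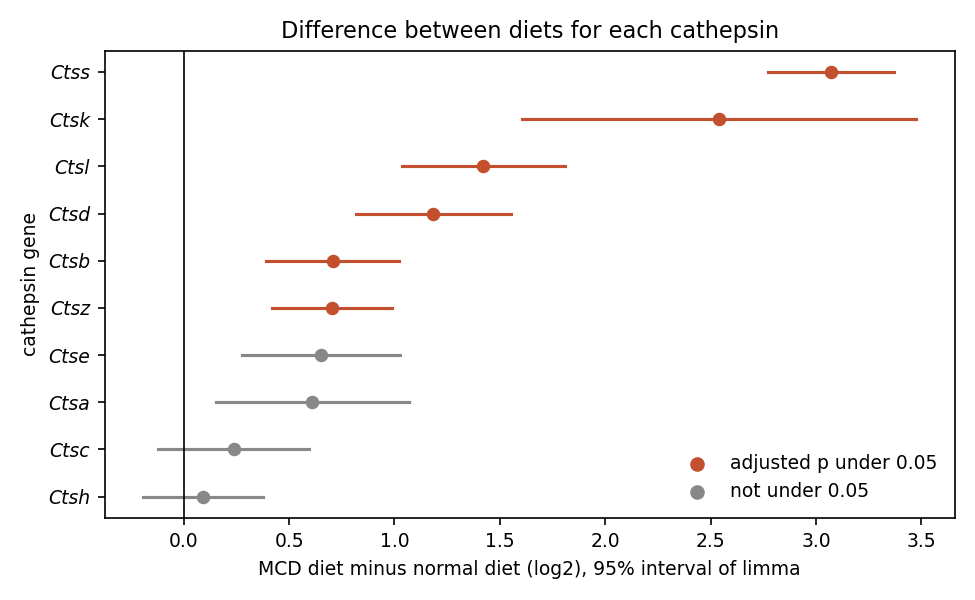
Difference between MCD diet and normal diet for each cathepsin gene on the log2 scale, with the 95% interval of limma (2 arrays per diet) and called genes in orange. The interval of Ctss runs from 2.77 to 3.37 and that of Ctsk from 1.61 to 3.48, and those of Ctsc and Ctsh include 0.

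In the order of the differences, the largest step between neighbours was that from Ctsk to Ctsl, 1.12 with a combined standard error of 0.41. The step from Ctsd to Ctsb was 0.48 with a combined standard error of 0.20. Ctss and Ctsk differed by 0.53 (combined standard error 0.40) and Ctsl and Ctsd by 0.24 (combined standard error 0.22), so the order within these pairs is not settled. Ctsb, Ctsz, Ctse and Ctsa followed in steps of at most 0.052, less than any of their combined standard errors, which assume that genes vary independently. Calls of Ctss, Ctsl and Ctsd held when any 1 array was left out, with adjusted p of at most 0.00312, 0.0296 and 0.0377.

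**Figure D3:**
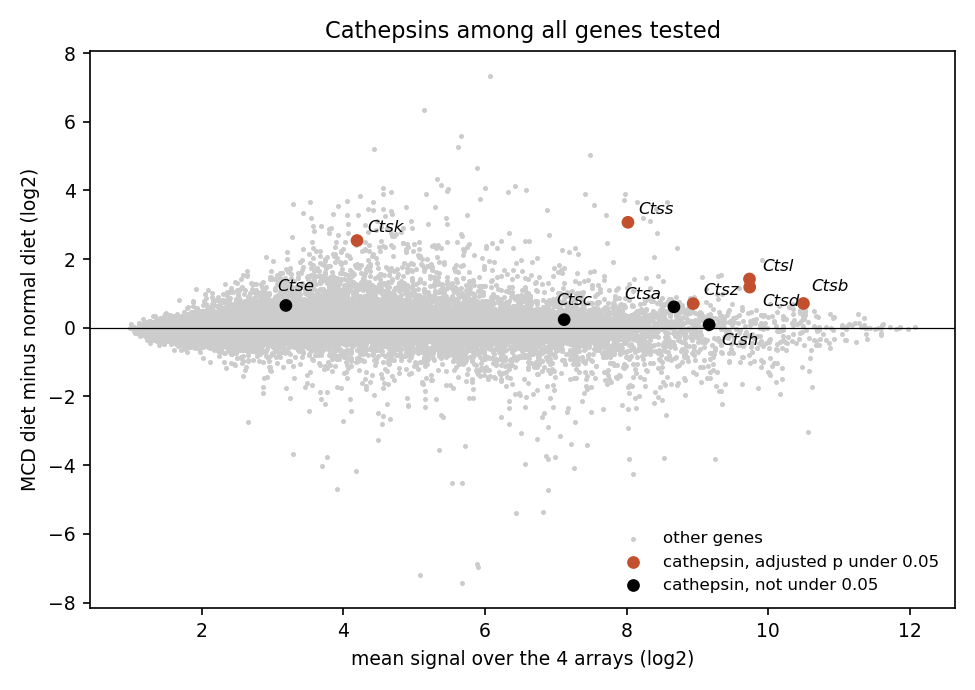
Difference between diets against the mean signal over the 4 arrays, both log2, for all 22180 genes (grey) with the cathepsins marked, called ones in orange and others in black. Ctss combines a high mean signal with a difference of 3.07. Ctsk and Ctse have the lowest mean signals of the 10 chosen cathepsins, and both were dim on the normal diet (2.92 and 2.86).

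The cathepsins were higher on MCD diet replicate 1 than on replicate 2 in 9 of 10 cases, Ctsh being the exception, whereas 47.6% of all genes were. Over the 10 genes the mean signal was 7.39 and 7.34 in normal diet livers, against 8.63 and 8.34 in MCD diet livers. The markers of lipid-associated macrophages, a cell state of fatty liver, had mean signals of 3.94 and 4.03 on the normal diet and 7.71 and 7.31 on the MCD diet, and 10 of 11 were higher on MCD diet replicate 1. All 11 measured markers rose, with a median of 3.195, among them Gpnmb (7.33 ± 0.20), Trem2 (3.47 ± 0.22) and Cd68 (3.43 ± 0.24). Of 11 markers common to macrophages and monocytes 9 rose, with a median of 1.09 and mean signals of 3.97 and 3.92 against 5.29 and 5.01. They included Lyz2 (2.46 ± 0.14) and Spi1 (1.04 ± 0.17), the gene of the myeloid factor PU.1, whereas Adgre1 did not pass (1.09 ± 0.29; limma adjusted p = 0.0748). Of 11 markers of resident Kupffer cells 5 fell, such as Clec4f (-1.66 ± 0.19), and 0 rose, with mean signals of 5.33 and 5.37 against 4.62 and 4.34. The list was not uniform, since C6 had by far the largest fall (-3.81 ± 0.20). The 6 that were not called lay in both directions, from Folr2 (-0.71 ± 0.23) to Vsig4 (0.64 ± 0.37). Markers of the other liver cells moved as well. Stellate cell and fibroblast markers rose in 7 and fell in 1 of 14, with mean signals of 4.86 and 4.595 against 5.52 and 5.81, and 4 of the 14 were higher on MCD diet replicate 1. Cholangiocyte markers rose in 6 of 7, sinusoidal endothelial markers fell in 4 of 10 and hepatocyte markers fell in 2 of 12. At an unadjusted p under 0.05, 6 endothelial and 7 hepatocyte markers were lower and 0 of either were higher. Their medians were -0.47 and -0.42, and all 12 hepatocyte markers were lower in value (highest -0.009). The part of any of these cell types in the rise of the cathepsins was not tested.

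**Figure D4:**
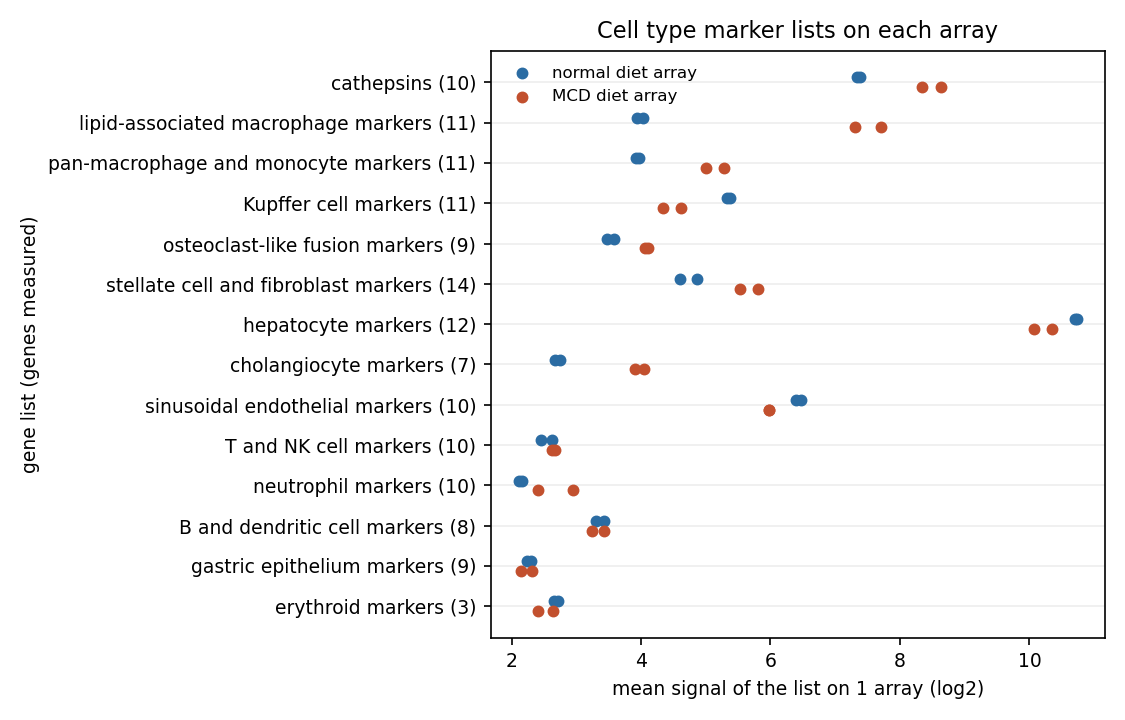
Mean log2 signal of the cathepsins and of each cell type marker list on each array, with the number of genes measured in brackets; normal diet in blue, MCD diet in orange. Lipid-associated macrophage markers moved from about 4.0 to above 7.3, and the means of Kupffer cell, hepatocyte and sinusoidal endothelial markers were lower on the MCD diet.

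For Ctsk the osteoclast genes are a second reference. Of 9 genes of osteoclasts and macrophage fusion 2 rose and 0 fell, with a median of -0.02. Atp6v0d2, a proton pump subunit of osteoclasts and lipid-loaded macrophages, rose by 4.64 ± 0.22, and Tnfrsf11a, which encodes the receptor RANK, by 0.85 ± 0.16 (limma adjusted p = 0.0274). Acp5, the osteoclast acid phosphatase, did not pass (-0.27 ± 0.13; limma adjusted p = 0.276), nor did the remaining 6. For Ctse, which stomach and red cell precursors express, 0 of 9 gastric and 0 of 3 erythroid markers were called (0 and 0 higher at an unadjusted p under 0.05, 1 and 1 lower). Mean gastric signals were 2.30 and 2.24 on the normal diet and 2.14 and 2.32 on the MCD diet, and all 9 lay below the median signal of the genes tested.

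Ctsk and Ctss are next to each other on chromosome 3 among protein-coding genes in RefSeq's GRCm38.p6 table, which was used for gene order. Arnt, the gene before Ctsk, differed by -0.02 ± 0.13 and Hormad1, the gene after Ctss, by -0.12 ± 0.15, neither called. Golph3l, beyond Hormad1, rose by 0.60 ± 0.13 (limma adjusted p = 0.0429). Over the 4 arrays, the genes with the pattern most like that of Ctss, by Euclidean distance between values centred on each gene's mean, were Bicc1 (distance 0.131), Prrg4 (0.187) and Myof (0.190), which differed by 3.20, 2.90 and 2.92. For Ctsk, picked for this after its spread was seen, they were Adam8 (0.143), Plek (0.153) and Cdkn1a (0.310), whose MCD diet signals were also apart, at 6.00 and 4.76 for Adam8. With 4 arrays such likeness is a description.

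Promoters are shown for Ctsd, Ctsa, Ctsl and Ctss, because lysosomal genes are known to share the CLEAR element, a site of the transcription factor TFEB and its relatives built around the E-box CACGTG. RefSeq's GRCm38.p6 table held windows for 7 of the 10 genes, and Ctsb, Ctse and Ctsh were not matched. The 250 bases before each start were searched on both strands for CACGTG, for GTCACGTG, an E-box with its CLEAR flank (which contains the former), and for GAGGAAGT, a PU.1 motif. Letters in capitals mark matches (in Ctsd they read CACGTGAC, the other strand of GTCACGTG), and each sequence runs 5′ to 3′ on the strand of its gene. Ctsd lies at chr7:142387828-142388077 (minus strand), Ctsa, at the downstream of its 2 starts, at chr2:164833523-164833772 (plus strand), Ctsl at chr13:64370521-64370770 (minus strand) and Ctss at chr3:95526536-95526785 (plus strand).
Ctsd: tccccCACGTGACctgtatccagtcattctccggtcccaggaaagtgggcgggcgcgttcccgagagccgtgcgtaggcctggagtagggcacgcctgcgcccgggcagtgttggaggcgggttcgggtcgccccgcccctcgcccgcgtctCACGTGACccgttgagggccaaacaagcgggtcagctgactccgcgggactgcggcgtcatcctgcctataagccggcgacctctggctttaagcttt
Ctsa: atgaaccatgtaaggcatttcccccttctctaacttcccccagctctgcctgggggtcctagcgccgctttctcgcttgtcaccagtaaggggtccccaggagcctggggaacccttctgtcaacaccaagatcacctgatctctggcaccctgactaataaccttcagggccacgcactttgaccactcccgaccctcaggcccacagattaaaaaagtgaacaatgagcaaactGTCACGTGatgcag
Ctsl: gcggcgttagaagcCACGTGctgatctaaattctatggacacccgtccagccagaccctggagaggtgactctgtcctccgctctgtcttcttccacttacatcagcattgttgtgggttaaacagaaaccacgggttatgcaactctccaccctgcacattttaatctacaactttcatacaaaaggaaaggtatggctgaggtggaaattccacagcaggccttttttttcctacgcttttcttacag
Ctss: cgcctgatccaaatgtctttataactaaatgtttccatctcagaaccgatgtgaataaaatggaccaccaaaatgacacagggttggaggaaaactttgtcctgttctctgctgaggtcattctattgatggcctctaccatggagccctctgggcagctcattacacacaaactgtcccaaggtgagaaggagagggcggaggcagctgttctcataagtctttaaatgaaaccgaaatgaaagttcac

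Ctsd held GTCACGTG at 2 places, starting 245 and 98 bases before the start, and Ctsa at 1, 14 bases before it. Ctsl held CACGTG 236 bases before its start without the flank. The windows of Ctss, Ctsk, Ctsz and Ctsc and the upstream window of Ctsa held neither. GAGGAAGT was found in Ctsc alone of the 7. Among all 32851 promoter windows of the same length, 6.02% held CACGTG, 1.85% held GTCACGTG and 2.44% held GAGGAAGT. A match is a run of letters and says nothing of binding, and the motifs were chosen with these values known. Of the genes with GTCACGTG, Ctsd rose, and Ctsa differed by 0.61 without passing the test. Ctss, with the largest rise, had no match in this window. Whether these motifs bear on the differences was not tested.

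The transcription factors of the TFEB family, which drive lysosomal genes, were not called at the RNA level. Of 7 factors of this group and their regulators 0 rose and 0 fell, with a median of -0.18 over all 7. At an unadjusted p under 0.05, 1 was higher, Tfec of the TFEB family. The 2 lower at that level, Foxo3 and Zkscan3 (-0.38 ± 0.13; limma adjusted p = 0.136), lie outside that family. Tfeb had signals of 2.62 and 2.88 on the normal diet and 2.27 and 2.88 on the MCD diet, which overlap (-0.18 ± 0.22; limma adjusted p = 0.697). Its sign turned without MCD diet replicate 1 (0.13). Tfec, the member found in macrophages, differed by 0.68 ± 0.19 (limma adjusted p = 0.0879). Foxo3 differed by -0.65 ± 0.15 (limma adjusted p = 0.0536) and passed under quantile normalization (adjusted p = 0.0392), median centring (adjusted p = 0.0385), without the dimmest 25% or 50% of genes (adjusted p = 0.0488 and 0.0435) and without normal diet replicate 1 (adjusted p = 0.0479).

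**Figure D5:**
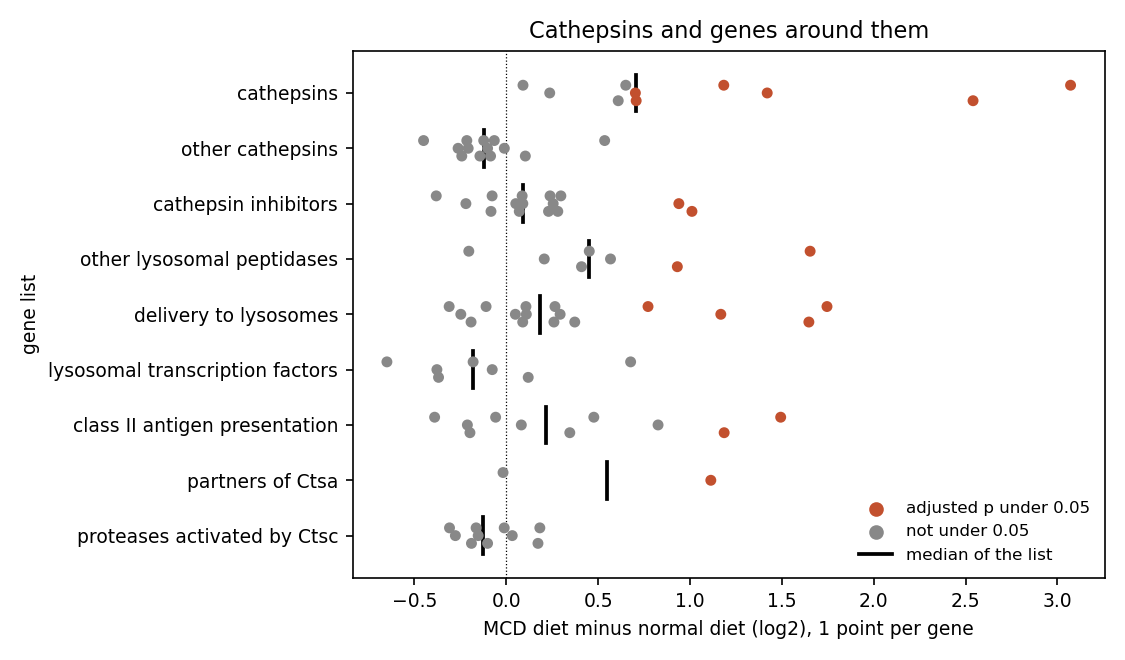
Difference between diets on the log2 scale for each gene of the cathepsin family and of the lists around it, 1 point per gene, called genes in orange and the median of each list as a black bar. The cathepsin median of 0.71 is the furthest to the right, and no gene of the other cathepsins, the transcription factors or the proteases activated by Ctsc is called.

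Of 16 genes for the delivery of enzymes to lysosomes 4 rose, 0 fell and 12 were not called, with a median of 0.19. Cln6, which helps export lysosomal enzymes from the endoplasmic reticulum, had signals of 4.11 and 4.45 on the normal diet and 6.14 and 5.92 on the MCD diet and rose by 1.75 ± 0.16 (limma adjusted p = 0.00279). The sorting receptor gene Sorl1 rose by 1.65 ± 0.14 (limma adjusted p = 0.00209). Gnptab, whose enzyme begins the mannose 6-phosphate tag, rose by 1.17 ± 0.15 (limma adjusted p = 0.00752). Of the receptors for that tag, Igf2r rose by 0.77 ± 0.13 (limma adjusted p = 0.0170), and M6pr did not pass (0.29 ± 0.15; limma adjusted p = 0.316). M6pr was 0.13 without MCD diet replicate 1 and 0.45 without MCD diet replicate 2. The call of Igf2r was lost without normal diet replicate 1 or 2 (adjusted p = 0.0643 and 0.0845) and without MCD diet replicate 1 (adjusted p = 0.0852).

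Inhibitors of cathepsins were mostly not called. Of 15 measured, 2 rose and 0 fell, with a median of 0.09, and 2 further ones were not analysed here. Cstb, the cytosolic cystatin B, had signals of 5.47 and 5.16 on the normal diet and 6.47 and 6.19 on the MCD diet and rose by 1.01 ± 0.17 (limma adjusted p = 0.0170). Its call was lost without normal diet replicate 2 (adjusted p = 0.0765) and without MCD diet replicate 1 (adjusted p = 0.0830). Ctla2a, whose product resembles a cathepsin propeptide, rose by 0.94 ± 0.12 (limma adjusted p = 0.00796), a value that is uncertain because its close copy Ctla2b (0.23 ± 0.13) can share signal. Cst3, the secreted cystatin C, differed by 0.26 ± 0.13 (limma adjusted p = 0.305), by 0.065 with the mean of its rows in place of the brightest and by 0.15 without MCD diet replicate 1. Cst7, which inhibits Ctsc in immune cells, differed by -0.38 ± 0.13 at a dim signal (limma adjusted p = 0.147).

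Other lysosomal peptidases gave 2 higher and 0 lower of 7, with a median of 0.45. Lgmn, legumain, which cleaves the precursors of several cathepsins, had signals of 6.88 and 6.54 on the normal diet and 8.60 and 8.13 on the MCD diet. It rose by 1.65 ± 0.20 (limma adjusted p = 0.00634), more than any cathepsin but Ctss and Ctsk by value, a comparison that was not tested. Prcp, a prolylcarboxypeptidase, rose by 0.93 ± 0.14 (limma adjusted p = 0.0130). Its call was lost without normal diet replicate 2 (adjusted p = 0.0667) and without MCD diet replicate 1 (adjusted p = 0.0696).

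Genes that work with single cathepsins were read beside them. For Ctss and the class II route, 2 of 10 measured genes rose and 0 fell, with a median of 0.21. At an unadjusted p under 0.05, 5 were higher and 1 lower. Cd74, the invariant chain, was not analysed here. Ifi30, the lysosomal thiol reductase of antigen processing, rose by 1.49 ± 0.24 (limma adjusted p = 0.0155) and H2-Aa, a class II chain, by 1.19 ± 0.19 (limma adjusted p = 0.0170). The call of H2-Aa was lost without normal diet replicate 2 (adjusted p = 0.0765) and without MCD diet replicate 2 (adjusted p = 0.0571), and that of Ifi30 without MCD diet replicate 1 (adjusted p = 0.0808). Only 1 of these 10 genes was higher on MCD diet replicate 1 than on replicate 2, against 9 of the 10 cathepsins and 47.6% of all genes. That contrast rests on 1 pair of arrays, and its source was not tested. The B and dendritic cell markers, whose cells also present antigen, gave 0 calls among 8 (1 higher and 1 lower at an unadjusted p under 0.05).

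Of the partners of Ctsa, Neu1, the neuraminidase it protects, had signals of 5.73 and 5.63 on the normal diet and 5.58 and 5.75 on the MCD diet, which overlap (-0.02 ± 0.13; limma adjusted p = 0.958). The sign turned when replicate 1 of the normal diet (0.03) or of the MCD diet (0.064) was left out. Galns, a sulfatase of the same complex, rose by 1.11 ± 0.15 (limma adjusted p = 0.00863). That call was lost without MCD diet replicate 1 (adjusted p = 0.0505), and Glb1 was not analysed here. Of the 10 granule proteases that Ctsc activates, 0 were called in limma and 0 passed an unadjusted p under 0.05, with a median of -0.13, and all 10 lay below the median normal diet signal. The largest differences were those of Tpsb2 (-0.31 ± 0.13) and Gzmb (-0.28 ± 0.14), which were -0.21 and -0.16 without MCD diet replicate 1. Neutrophil markers rose in 1 of 10, with 3 higher and 0 lower at an unadjusted p under 0.05. All 10 were higher in value, with a median of 0.51, and all 10 lay below the median normal diet signal. T and NK cell markers rose in 0 of 10 (2 higher and 1 lower at an unadjusted p under 0.05).

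The remaining cathepsin genes of the array, 13 in all, were not called by limma. At an unadjusted p under 0.05 there were 1 higher and 1 lower, the median was -0.12, and 10 of the 13 lay below the median normal diet signal. Ctsw, a cathepsin of killer lymphocytes, differed by 0.54 ± 0.21 (limma adjusted p = 0.197), by 0.24 without MCD diet replicate 1 and by 0.84 without MCD diet replicate 2. Cts3, of the placental cathepsin cluster, whose members resemble one another, differed by -0.45 ± 0.12 (limma adjusted p = 0.0739) and passed under quantile normalization (adjusted p = 0.0485). Ctsf and Ctso, which are widely expressed, differed by -0.14 ± 0.13 and -0.01 ± 0.13.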

How the data were processed

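Liver total RNA of 4 samples was hybridised to gene-level arrays. Per the submitters' processing notes the authors used Transcriptome Analysis Console; its version, summarization and normalization were not stated there. The deposited values were taken as log2 signals, a base inferred from their range, on which every fold change depends. Rows naming exactly 1 gene were kept (23521 of 34472), 23328 of them found in RefSeq's gene table, and the brightest row stood for each of 22180 genes. No dim genes were removed.

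Diets were compared with limma 3.58.1 in R 4.3.3, two-sided, without a block, adjusted over all genes by Benjamini-Hochberg at 0.05, with 6.06 total degrees of freedom per gene. The script was tested on 20 simulated sets with 200 changed genes each. It called 45.8% of changed genes at a log2 difference of 1 and 96% at 2, and 5.09% of calls were false. A gene that was not called may therefore still differ. The simulated noise was normal, independent between genes and drawn from limma's own fitted spread. The share of false calls is thus a check of the script and not of these arrays. Since 2214 genes were called in the data, against 200 changed in each set, the recovered shares need not carry over. The members, lists, tests and alternatives were chosen with earlier results of these data known. Named genes are all 10 members, a set of partners, up to 4 of the largest called genes per list and direction or, where none was called, up to 2 with the largest differences, up to 3 markers per cell type, and the 3 genes most like Ctss. Ctsf, Ctso, Ctla2b, Zkscan3, the genes like Ctsk and the chromosomal neighbours lie outside that rule and were added after values were seen.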

Additional observations from a re-analysis of the deposited data

How the results depend on the processing

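The count of 6 cathepsins called higher was between 6 and 7 under quantile normalization, median centring, an intensity trend, either filter on dim genes, all rows tested, the mean of a gene's rows and the replicate block, 4 when calls needed a 2-fold size and an unadjusted p under 0.05, and 3 to 4 when 1 array was left out, where the lone array of a diet is assumed to vary like the other pair. The count called lower was 0 in each of these. All genes called numbered 2214, 1155 under the 2-fold rule and 1050 to 1493 when 1 array was left out. With the replicate block 6 cathepsins and 1950 genes were called, and it changed no cathepsin's call, while Tfec passed (0.68, adjusted p = 0.0413). The numbers do not pair the samples by the labels, and deviations of same-numbered arrays correlated at 0.054 across genes. None of the 10 chosen cathepsins, nor Ctsw or Cts3, changed sign under these alternatives, which were not run for each remaining cathepsin. Of the other genes for which they were run, Tfeb and Neu1 changed sign when 1 array was left out. Tfeb ran from -0.49 to 0.13, the latter without MCD diet replicate 1. Neu1 ran from -0.10 to 0.064, the latter without MCD diet replicate 1, and was 0.03 when normal diet replicate 1 was left out. Neither was called in these fits, and the cause was not tested. Signal over background was not analysed here, and genes that were dim on the normal diet, such as Ctse and Ctsk, have uncertain sizes.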

Other observations

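Of the protein-coding neighbours of the other cathepsin genes in RefSeq's order, looked at after the values of the family were known, Rab7b, next to Ctse on chromosome 1 and the gene of a small GTPase of late endosomes, rose by 1.75 ± 0.20 (limma adjusted p = 0.00489). Avpr1b, on the other side of Ctse, differed by -0.04 ± 0.13. Atp5e, the second gene beyond Ctsz on chromosome 2 and a subunit of ATP synthase, fell by 0.84 ± 0.13 (limma adjusted p = 0.0145). Both direct neighbours of Ctsd, Ifitm10 and Syt8, differed by 0.07 ± 0.12 and -0.02 ± 0.13, and those of Ctsb, Defb42 and Fdft1, by -0.31 ± 0.14 and 0.19 ± 0.43, none called.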
